A study of Mus musculus with 22 samples.

Results

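A set of 9 genes of the m6A pathway was followed among the 24421 genes of the count tables, and all 9 were found under the symbols used here. They are the 5 readers with a YTH domain (Ythdf1, Ythdf2, Ythdf3, Ythdc1 and Ythdc2) and 4 cofactors of the methyltransferase complex (Rbm15, Rbm15b, Zc3h13 and Cbll1). They were chosen by name as readers and cofactors outside the m6A genes that the study itself measured, and not by any expression value. RNA from the right brain hemisphere was sequenced from 7 dominant and 7 submissive males and from 4 dominant and 4 submissive females of the strain labelled C57B6/J OlaHsd. The mice were untreated and not genetically modified as far as the labels and methods tell, and were kept 4 to a cage. Their rank came from the tube test at 10 to 12 weeks of age, in which mice meet in a narrow tube and the one pushed out loses, and they were sacrificed 3 to 4 days later. Mice with the same replicate number came from the same cage according to the library names, except that females 3 and 4 carry group labels there, which are treated as cages here. Females of intermediate rank were regrouped and ranked again according to the methods, and whether females 3 and 4 come from such groups is not given in the sources used here. Males and females stand in separate count tables, and the library names of the tables begin differently, so sex and table cannot be told apart. RNA was taken from a whole hemisphere, so fewer cells of a type and less RNA per cell cannot be told apart either.

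N6-methyladenosine (m6A) is a methyl mark on adenosines inside mRNA. METTL3 and METTL14 place it, and cofactors bring this pair to its targets: RBM15 and RBM15B bind RNA, ZC3H13 helps to hold the complex in the nucleus, and CBLL1 (also called HAKAI) is a RING-domain protein of the same complex. Readers with a YTH domain bind the methylated base. The YTHDF proteins act in the cytoplasm on decay and translation of mRNA, YTHDC1 acts in the nucleus on splicing and export, and YTHDC2 is a helicase known best from meiosis.

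The coordinates are those of mm10. Ythdf1 is at chr2:180904377-180920936, Ythdf2 at chr4:132184916-132212256, Rbm15 at chr3:107326110-107333289, Rbm15b at chr9:106883985-106887000 and Cbll1 at chr12:31484829-31499616, all on the minus strand. Ythdf3 is at chr3:16183183-16217037, Ythdc1 at chr5:86804490-86836657 and Zc3h13 at chr14:75284373-75344426, on the plus strand. Counting used between 3016 exon bases (Rbm15b, a single exon) and 6299 (Ythdc2, 30 exons). No exon of the 9 genes overlaps another gene of the count table. In the GENCODE annotation, 631 exon bases of Ythdc1 overlap Gm43055 on the same strand, and 704 of Cbll1 overlap Gm29542 on the opposite strand. Of all stretches of 85 bases, the read length, in their protein-coding transcripts, 551 of 3383 in Ythdc1, 492 of 4410 in Cbll1 and 103 of 4209 in Ythdf2 also occur in another gene. The other 6 genes share none, so the paralogs Ythdf1 and Ythdf3, and Rbm15 and Rbm15b, can be told apart by single reads.

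RefSeq promoters (GRCm38.p6) were at hand for 7 of the 9 genes, not for Ythdf3 and Ythdc2. The 250 bases before the RefSeq start are printed for the 3 of them whose level passed the test between the tables, since these carry the main difference described below. Capitals mark the GC box (GGGCGG, or CCGCCC on the other strand), the core hexamer of the cAMP response element (TGACGT, or ACGTCA on the other strand) and the E-box (CACGTG), searched on both strands. A run of capitals longer than 6 bases is a pair of overlapping or adjoining GC boxes. The first sequence is chr5:86804016-86804265 on the plus strand, the second chr2:180920937-180921186 and the third chr9:106887076-106887325, both on the minus strand, all read 5′ to 3′. The RefSeq start lies 224 bases upstream of the first counted exon base of Ythdc1 given above and 75 bases upstream of that of Rbm15b, and coincides with it for Ythdf1.
Ythdc1: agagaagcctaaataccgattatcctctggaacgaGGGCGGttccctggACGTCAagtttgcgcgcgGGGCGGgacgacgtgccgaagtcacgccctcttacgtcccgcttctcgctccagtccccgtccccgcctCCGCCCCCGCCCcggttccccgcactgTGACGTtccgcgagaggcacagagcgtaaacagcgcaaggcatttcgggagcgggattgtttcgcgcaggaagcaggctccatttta
Ythdf1: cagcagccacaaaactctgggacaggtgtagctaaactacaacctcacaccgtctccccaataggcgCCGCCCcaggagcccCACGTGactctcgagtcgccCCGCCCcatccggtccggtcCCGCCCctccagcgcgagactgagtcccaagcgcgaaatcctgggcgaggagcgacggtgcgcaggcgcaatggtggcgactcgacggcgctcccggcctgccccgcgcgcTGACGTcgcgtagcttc
Rbm15b: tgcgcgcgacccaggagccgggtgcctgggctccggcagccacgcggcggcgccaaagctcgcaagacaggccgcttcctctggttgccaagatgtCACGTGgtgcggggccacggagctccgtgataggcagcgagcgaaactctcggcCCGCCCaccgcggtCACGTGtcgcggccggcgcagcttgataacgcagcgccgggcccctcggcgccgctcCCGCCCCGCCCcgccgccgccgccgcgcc
The Ythdc1 window held 4 GC boxes and 2 cAMP hexamers, the Ythdf1 window 3 GC boxes, 1 hexamer and 1 E-box, and the Rbm15b window 3 GC boxes and 2 E-boxes. Of 14545 such windows of genes tested here, 55.4% held a GC box, 9.25% the hexamer and 7.93% the E-box. Over all 32841 windows the shares were 32.8%, 6.47% and 6.02%. All 3 windows are rich in CpG, with 30 of these dinucleotides in Ythdc1, 30 in Ythdf1 and 40 in Rbm15b. These letters describe the windows and say nothing of which factors bind there.

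All 9 genes were expressed in every hemisphere. The lowest count of any of them was 194 reads (Cbll1 in dominant male 6) and the highest 2570 (Ythdf3 in a dominant female), out of 12403943 to 16488762 counted reads per mouse. Levels are given as CPM, read counts divided by TMM-adjusted library sizes and scaled to 1000000, and between genes as CPM per kilobase of counted exon. Over the 22 mice Ythdf3 stood highest at 26.7 ± 2.58 CPM per kilobase (SD), followed by Ythdc1 at 21.4 ± 4.17, Ythdf1 at 18.2 ± 1.38, Ythdf2 at 16.7 ± 0.894 and Ythdc2 at 16.7 ± 0.953. The cofactors followed with Rbm15b at 14.7 ± 1.23, Rbm15 at 10.7 ± 0.894 and Zc3h13 at 9.67 ± 1.10, and Cbll1 came last at 4.55 ± 0.483. Every reader thus had a higher mean level than every cofactor. The places of the middle readers rest on pooling the tables, since in the 14 males Ythdf1 (18.9 CPM per kilobase) stood above Ythdc1 (18.5) and Ythdc2 (17.0) above Ythdf2 (16.4), while in the 8 females Ythdc1 (26.5) was second to Ythdf3 (28.7). The ranges of neighbours in this order overlapped, apart from Rbm15b above Rbm15 (12.5 to 17.2 against 9.38 to 12.3 CPM per kilobase) and Zc3h13 above Cbll1 (7.30 to 11.6 against 3.38 to 5.55). The order rests on the length used. The count table covers 3034 exon bases of Ythdc1, 3270 of Rbm15 and 3016 of Rbm15b, while their longest GENCODE transcripts have 6313, 5967 and 6511 bases. Divided by those transcripts, Ythdc1 dropped from the 2nd to the 5th place at 10.3 CPM per kilobase. Rbm15b and Rbm15 then stood at 6.799 and 5.851 CPM per kilobase, below Zc3h13 at 9.67.

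**Figure D1:**
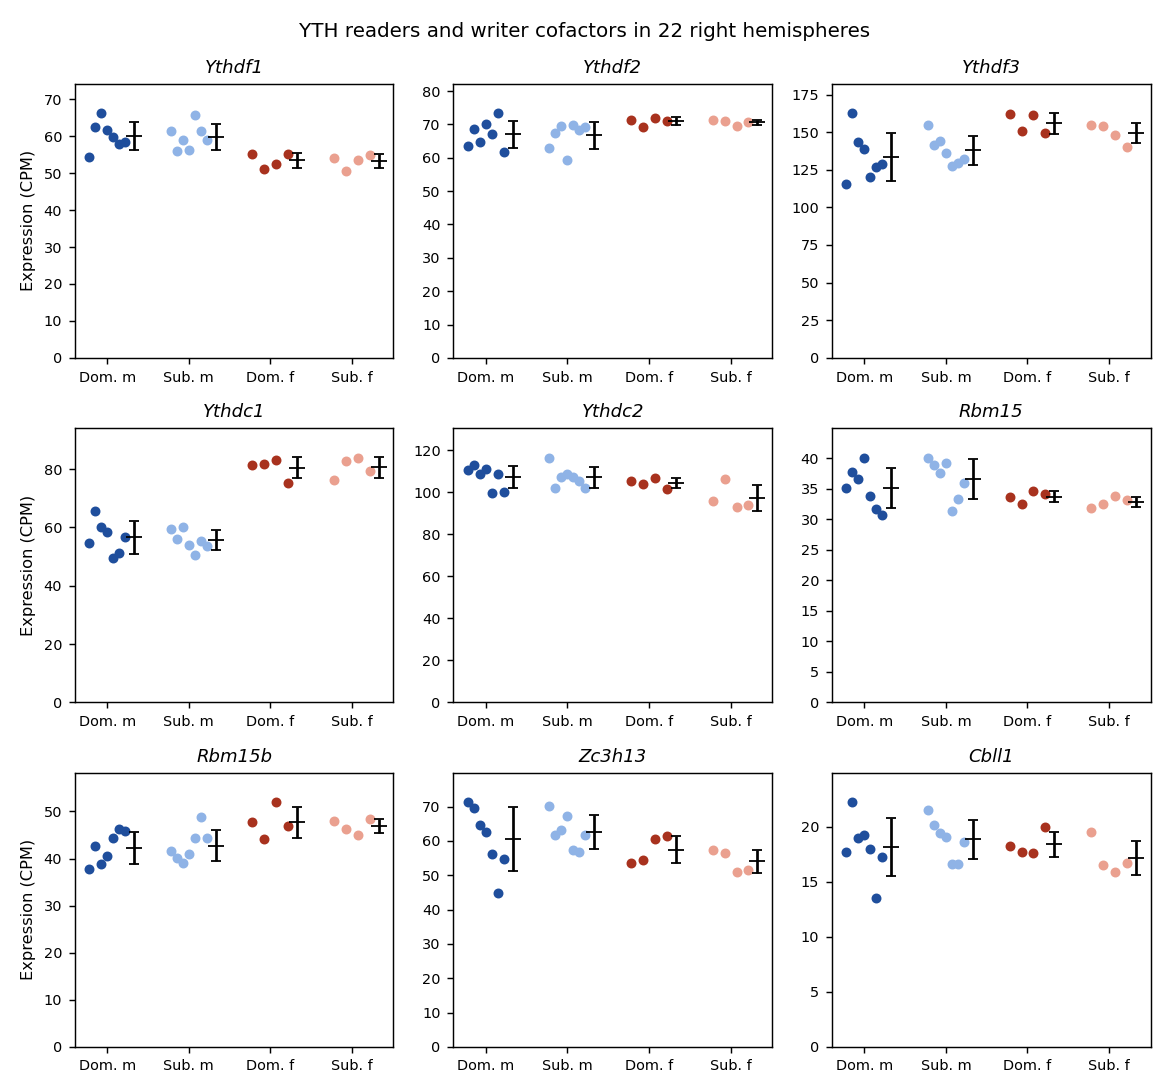
Expression in CPM (y axes, from 0) of the 9 genes in each of the 22 mice (points) by group (Dom. m and Sub. m, dominant and submissive males, 7 each; Dom. f and Sub. f, dominant and submissive females, 4 each), with the mean and SD of each group as black bars. The ranks overlap for every gene, and the 8 females lie above the 14 males for Ythdc1, at 75.1 to 83.9 against 49.5 to 65.7 CPM.

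Rank was compared first, as the study did for the genes of the methyltransferase complex. None of the 9 genes passed the test for rank in either sex. In males, 0 of 9 passed an adjusted p of 0.05 in edgeR's quasi-likelihood test, beside 0% of the 14737 genes tested, and 0 of 9 had an unadjusted p under 0.05, beside 1.32% of all genes. In females, 0 of 9 passed, beside 0.0942% of the 14865 genes tested (14 genes). Ythdc2 alone had an unadjusted p under 0.05 there, beside 10.5% of all genes. DESeq2 called 0 of 9 in males, beside 0% of all genes, and 0 of 7 in females, beside 0.518%, where it gave no adjusted p for Rbm15 and Cbll1. The count of 14 genes in females moved from 0 without submissive female 1 or 3 to 77 without dominant female 2. The CPM of the ranks overlapped for all 9 genes, so that 0 of 9 were without overlap in males, beside 0.00679% of all genes, and 0 of 9 in females, beside 5.46%.

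Among the readers, Ythdf1 had nearly the same level in both ranks. Dominant males had 60.1 ± 3.81 CPM (SD, n = 7) and submissive males 59.8 ± 3.42 (SD, n = 7), and dominant and submissive females 53.5 ± 2.02 and 53.3 ± 1.90 (SD, n = 4 each). The log2 difference of dominant minus submissive mice was 0.0065 in males (95% interval -0.093 to 0.11) and -0.0039 in females (-0.096 to 0.088). Ythdf2 was as close, with log2 differences of 0.0055 in males (-0.094 to 0.11) and -0.0014 in females (-0.077 to 0.074). For these cytoplasmic readers the intervals of both sexes thus left room for differences of up to 0.11 on the log2 scale.

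Ythdf3, the most abundant reader, was lower in dominant males by its mean and higher in dominant females, both within the spread. It ranged from 116 over a median of 129 to 163 CPM in dominant and from 127 over 136 to 155 CPM in submissive males, with a log2 difference of -0.05 (-0.18 to 0.09). The lowest value, 116 CPM, came from dominant male 1, whose cage mate had 155 CPM. That library had 0 counts of the Purkinje cell gene Pcp2 and 173 CPM summed over 6 cerebellar marker genes, against 521 to 848 CPM in the other males, and the part of this in its Ythdf3 level was not tested. With single mice left out, the log2 difference of Ythdf3 ran from -0.099 without dominant male 2 to -0.013 without dominant male 1, and none of these fits called it. In females Ythdf3 had 162, 151, 162 and 149 CPM in dominant and 155, 154, 148 and 140 CPM in submissive mice of cages 1 to 4. The dominant female was higher in 3 of 4 cages, and the log2 difference was 0.05 (-0.025 to 0.13).

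Ythdc1, the nuclear reader, ranged from 49.5 over 56.9 to 65.7 CPM in dominant and from 50.5 over 55.3 to 60.1 CPM in submissive males. In females it had 81.4, 81.9, 83.2 and 75.1 CPM in dominant and 76.2, 82.8, 83.9 and 79.2 CPM in submissive mice. The log2 differences between ranks were 0.02 in males (-0.10 to 0.15) and -0.0093 in females (-0.098 to 0.080). Ythdc2 had the lowest p of the 9 genes in females. It had 105, 104, 107 and 101 CPM in dominant females and 95.9, 107, 93.0 and 93.9 CPM in submissive females of cages 1 to 4. The dominant female was higher in 3 of 4 cages, and the groups overlapped through submissive female 2. The log2 difference was 0.09 (0.0082 to 0.18), with an adjusted p of 0.424 in edgeR's quasi-likelihood test. With the exon length trend removed it was 0.06 (edgeR adjusted p = 0.777), below the 0.09 of Cbll1. In males it was 0.0035 (-0.082 to 0.089), and the difference between the sexes in the effect of rank did not pass (0.10 on the log2 scale, -0.033 to 0.23, edgeR adjusted p = 0.999).

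None of the 4 cofactors passed the test for rank. Their log2 differences were negative in males and positive in females, and left-out mice turned the sign of Rbm15b in both sexes and of Zc3h13 and Cbll1 in males. In males the differences were -0.06 for Rbm15 (-0.20 to 0.08), -0.016 for Rbm15b (-0.14 to 0.11), -0.05 for Zc3h13 (-0.22 to 0.13) and -0.06 for Cbll1 (-0.24 to 0.12). In females they were 0.03 for Rbm15 (-0.073 to 0.13), 0.013 for Rbm15b (-0.091 to 0.12), 0.08 for Zc3h13 (-0.029 to 0.19) and 0.09 for Cbll1 (-0.063 to 0.25). A test of whether the rank difference itself differed between the sexes, over all 22 mice, called 0 of the 9 genes, beside 0% of 15233 genes. None of the 9 had an unadjusted p under 0.05 in it, beside 3.32% of all genes, and DESeq2 called 0. Its values among the 9 ran from -0.028 (Ythdc1) to 0.16 (Cbll1, -0.11 to 0.42). With both tables in one fit and table as a term, rank called 0 of 9 in edgeR and in DESeq2, again beside 0% of genes, with 0 of 9 under an unadjusted p of 0.05, beside 1.9% of genes, and the largest difference was 0.04 for Ythdc2 (-0.024 to 0.10). Over the 11 cages, the dominant mouse had the higher level in 4 cages for Rbm15b up to 7 cages for Ythdf2 and Ythdc2.

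**Figure D2:**
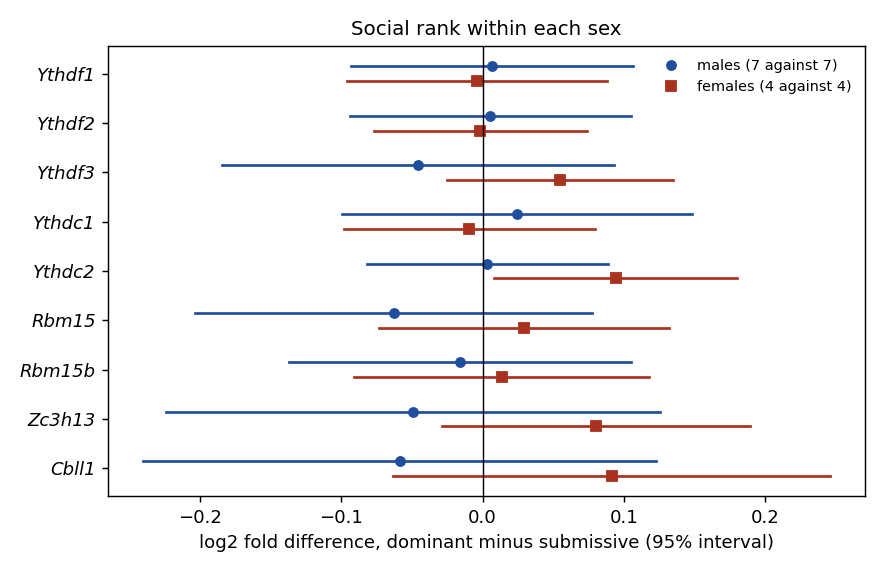
Log2 fold difference of dominant minus submissive mice (x axis) for each of the 9 genes, with the 95% interval from edgeR's quasi-likelihood fit as a line, in males (circles) and females (squares). All intervals include 0 except that of Ythdc2 in females, which runs from 0.0082 to 0.18.

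Levels were then compared between the female and the male table. Ythdc1, Ythdf3 and Rbm15b were higher in females, and Ythdf1 and Ythdc2 were lower. These 5 of 9 genes passed an adjusted p of 0.05 in edgeR's quasi-likelihood test over all 22 mice, beside 36.2% of the 15233 genes tested. Of all genes tested, 18.4% passed as higher in females and 17.8% as lower. Sex and table cannot be told apart in these differences. The sex labels were met by Ddx3y, which lies on the Y chromosome: every male had between 146 and 177 CPM and every female a count of 0.

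Ythdc1 had the largest difference. Its mean was 80.5 ± 3.31 CPM over the 8 females (SD) and 56.1 ± 4.46 CPM over the 14 males (SD), 1.44-fold higher in females. The lowest female, at 75.1 CPM, stood above the highest male, at 65.7 CPM, so that the tables did not overlap for this gene. This held for 1 of the 9 genes, beside 6.11% of all genes tested. The log2 difference was 0.52 (0.43 to 0.61, standard error 0.0421, adjusted p = 5.4e-10 in edgeR's quasi-likelihood test). It was larger in size than that of 97.5% of the genes tested. The overlap with Gm43055 means that part of the Ythdc1 reads could come from either locus. The difference ran from 0.51 to 0.56 over the 6 other ways of processing and from 0.50 to 0.54 when single mice were left out.

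The other readers differed by less. Ythdf3 had 153 ± 7.22 CPM in the 8 females and 136 ± 12.9 CPM in the 14 males, a log2 difference of 0.17 (0.071 to 0.27, edgeR adjusted p = 0.0068). Its ranges overlapped, at 140 to 162 CPM in females and 116 to 163 CPM in males. Ythdf1 moved the other way, with 53.4 ± 1.82 CPM in females and 60.0 ± 3.48 CPM in males, a log2 difference of -0.17 (-0.24 to -0.095, edgeR adjusted p = 5.46e-04). Females ranged from 50.6 to 55.2 CPM and males from 54.4 to 66.3 CPM, so that the tables overlapped by less than 1 CPM.

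Ythdc2 had 101 ± 5.78 CPM in females and 107 ± 4.92 CPM in males, a log2 difference of -0.09 (-0.15 to -0.024, edgeR adjusted p = 0.0297). This call was lost with the trend of counts on exon length removed (-0.014, edgeR adjusted p = 0.75) and with cage mates summed (-0.09, edgeR adjusted p = 0.0735). Ythdf2 had 70.8 ± 0.917 CPM in females and 66.9 ± 3.88 CPM in males. Its log2 difference of 0.08 (0.013 to 0.15) did not pass, at an adjusted p of 0.0565 in edgeR's quasi-likelihood test. It passed with the GC content trend removed (0.12, edgeR adjusted p = 0.0104), and also without dominant male 6 (edgeR adjusted p = 0.0422) and without submissive male 7 (edgeR adjusted p = 0.0488).

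Of the cofactors, Rbm15b passed. It had 47.3 ± 2.40 CPM in females and 42.5 ± 3.22 CPM in males, a log2 difference of 0.15 (0.063 to 0.24, edgeR adjusted p = 0.0075), with ranges of 44.1 to 52.0 CPM and 37.7 to 48.7 CPM. Its paralog Rbm15 had 33.2 ± 0.933 CPM in females and 35.9 ± 3.26 CPM in males, a log2 difference of -0.11 (-0.21 to -0.010, edgeR adjusted p = 0.0781). Rbm15 passed with the exon length trend removed (-0.11, edgeR adjusted p = 0.047). It also passed without dominant male 6 or 7 or submissive male 5 or 6, at adjusted p-values of 0.0194 to 0.0346 from edgeR. Zc3h13 had 55.8 ± 3.88 CPM in females and 61.6 ± 7.23 CPM in males, a log2 difference of -0.14 (-0.27 to -0.016, edgeR adjusted p = 0.073). It passed in 6 fits that each left out 1 mouse (dominant males 5, 6 and 7, submissive males 5 and 6, and dominant female 4), at adjusted p-values of 0.0049 to 0.0493 from edgeR. Cbll1 had 17.8 ± 1.43 CPM in females and 18.5 ± 2.18 CPM in males, a log2 difference of -0.06 (-0.19 to 0.08). Without dominant male 6, 8 of the 9 genes passed, all but Cbll1, beside 37.9% of all genes in that fit.

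**Figure D3:**
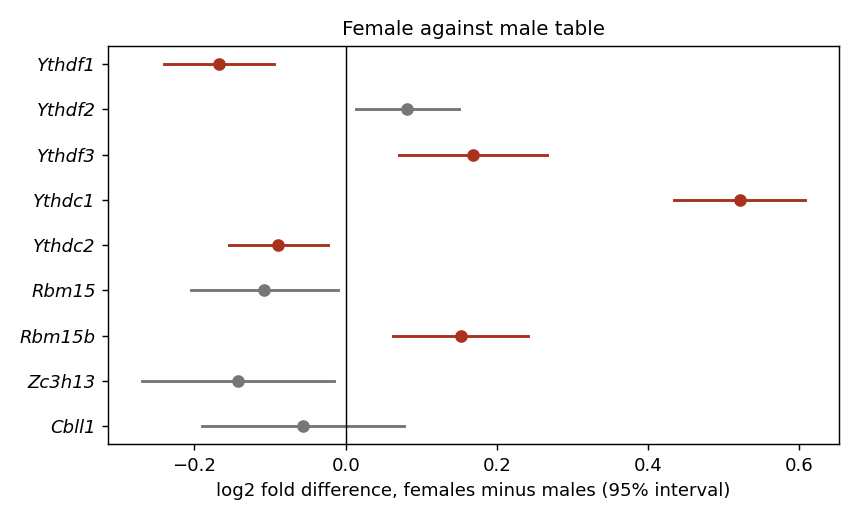
Log2 fold difference of females minus males (x axis) for the 9 genes with 95% intervals (lines), red where the adjusted p of edgeR's quasi-likelihood test was under 0.05 and grey otherwise. Ythdc1 lies at 0.52, the other 8 genes between -0.17 and 0.17.

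Relative levels within a library do not depend on its scaling. Of the summed CPM per kilobase of the YTHDF readers, Ythdf3 made up 45.6% ± 1.25 (SD, n = 8) in females and 41.9% ± 2.28 (SD, n = 14) in males. Ythdf2 made up 27.6% ± 0.477 and 27.0% ± 1.66, and Ythdf1 26.8% ± 0.979 and 31.1% ± 1.35. Ythdf1 was thus the second of the group in males and the third in females, and its share did not overlap between the tables (25.6% to 28.4% against 29.0% to 33.6%). Between the YTHDC readers, Ythdc1 held 60.6% to 65.2% in females and 49.4% to 54.7% in males, also without overlap. With the longest transcripts as lengths, chosen after the values were seen, Ythdc1 held 45.8% to 50.8% in females and 34.9% to 39.9% in males, again without overlap but with Ythdc2 the larger part on average. Rbm15b held 60.6% ± 1.09 of the RBM15 pair in females and 56.2% ± 3.74 in males, with the male range of 52.4% to 61.8% reaching into the female range of 59.1% to 62.1%. With the longest transcripts its share was 48.2% to 57.8% in males and 55.0% to 58.0% in females, so that Rbm15b no longer exceeded Rbm15 in every male. These shares are descriptions of each library and were not tested.

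**Figure D4:**
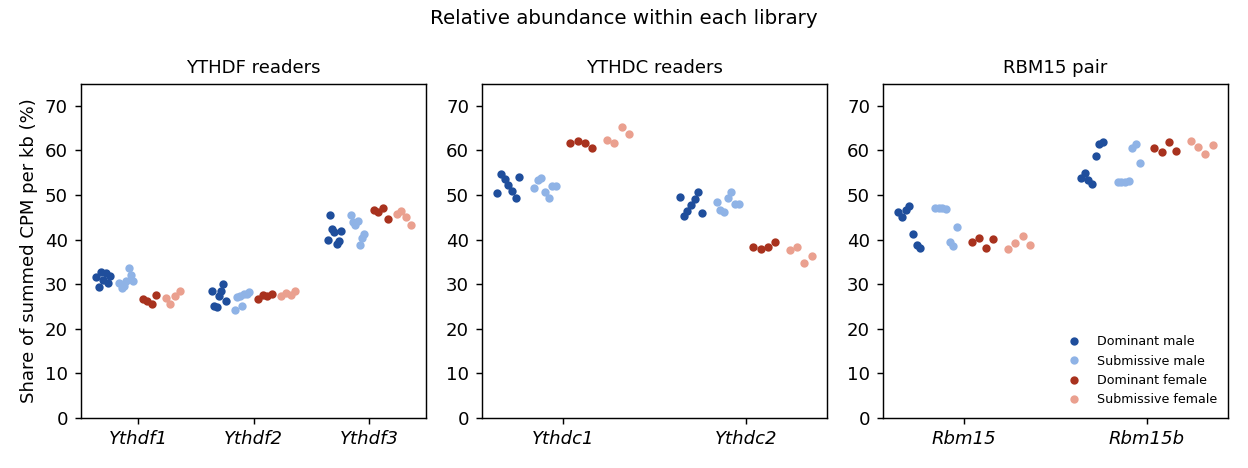
Share of each gene (y axis, percent of the summed CPM per kilobase of its group) among the 3 YTHDF readers, the 2 YTHDC readers and the RBM15 pair, with each mouse as a point and the groups in colours. The Ythdf1 share lies lower and the Ythdc1 share higher in all 8 females than in all 14 males, and the ranks overlap.

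The cofactors came nearest to a difference between male cages, short of the threshold. The library names number the male libraries in the order of the cages, so cage and library order cannot be told apart. The test of all cages, with rank as a term, called 0 of the 9 genes in males, beside 5.89% of the genes tested, and 4 of 9 had an unadjusted p under 0.05, beside 22.3% of all genes. Those 4 were the cofactors. Zc3h13 was nearest, at an adjusted p of 0.0582 in edgeR's quasi-likelihood test, and Rbm15b, Rbm15 and Cbll1 followed at 0.111, 0.132 and 0.148. DESeq2's likelihood ratio test called Zc3h13 (adjusted p = 0.0157), as did edgeR with no expression filter (adjusted p = 0.0237) and without the mice of cage 2 (edgeR adjusted p = 0.0476). With DESeq2 the other cofactors moved away from the threshold, to adjusted p-values of 0.491 for Rbm15, 0.536 for Rbm15b and 0.589 for Cbll1, and with the exon length trend removed Zc3h13 stood at 0.212 in edgeR.

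Zc3h13 had its highest cage mean in cage 1, at 71.3 CPM in the dominant and 70.2 CPM in the submissive male, and its lowest in cage 6, at 44.9 and 56.8 CPM. Cage means were 63.9 to 70.8 CPM in cages 1 to 4 and 50.9 to 58.2 CPM in cages 5 to 7. Rbm15 lay the same way, with cage means of 37.1 to 39.6 CPM in cages 1 to 4 and 32.5 to 33.3 CPM in cages 5 to 7, and so did Cbll1, with 19.2 to 21.2 and 15.1 to 17.9 CPM. Rbm15b was opposite, with 38.9 to 41.4 CPM in cages 1 to 4 and 44.4 to 47.5 CPM in cages 5 to 7. The readers Ythdc1, Ythdf3 and Ythdc2 lay the same way as Zc3h13. Ythdc1 had cage means of 56.0 to 60.9 CPM in cages 1 to 4 and 50.0 to 55.2 CPM in cages 5 to 7. Ythdf3 had 135 to 152 and 124 to 130 CPM, and Ythdc2 107.52 to 113.64 and 101.27 to 107.05 CPM. For Ythdf1 and Ythdf2 the cage means overlapped. This division of the cages was thus not particular to the cofactors. It was seen in the values and was not tested. Of 31 cell type markers tested, 4 passed the same cage test, beside 5.89% of all genes. These were Cldn5 of endothelium (edgeR adjusted p = 0.00265), Aldh1l1 of astrocytes (0.037) and the neuronal genes Rbfox3 (0.0388) and Slc17a7 (0.0103). Every other marker of these lists missed the threshold in that edgeR test. Flt1 and Pecam1 of endothelium stood at 0.675 and 0.737, and Aqp4, Gfap and Slc1a3 of astrocytes at 0.206 to 0.383. The neuronal genes Snap25, Syt1 and Gad1 stood at 0.143 to 0.795. The markers that passed thus do not stand for their cell types, and their part in the cofactor levels was not tested.

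Among the readers, Ythdc1 was nearest to a difference between male cages (edgeR adjusted p = 0.234), and Ythdf3 followed at 0.35. Without cage 1, which holds the library low in cerebellar genes, it passed at an adjusted p of 0.024 in edgeR's quasi-likelihood test, in a fit that called 12.5% of all genes. The cofactors stood at adjusted p-values of 0.0554 to 0.0613 and Ythdc1 at 0.0949 in that edgeR fit. The mean of Ythdf3 was then highest in cage 2 at 152 CPM and lowest in cage 5 at 124 CPM. In females, 0 of 9 genes passed the cage test, beside 0.074% of genes tested, and 0 of 9 had an unadjusted p under 0.05, beside 5.11%.

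**Figure D5:**
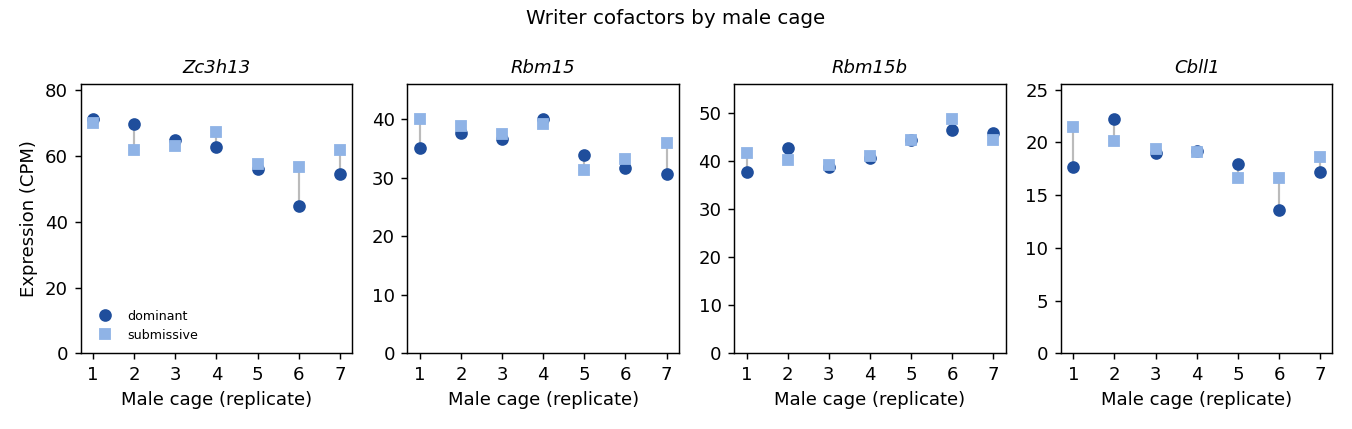
Expression in CPM (y axes, from 0) of the 4 cofactors in the dominant (circle) and submissive (square) male of each of 7 cages (x axis), joined by a line. Zc3h13, Rbm15 and Cbll1 have their lowest cage means in cages 5 to 7 and Rbm15b has its highest there.

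The spread between mice of one group also differed among the genes. The biological coefficient of variation, which edgeR estimates by drawing each gene toward genes of similar level, ran in males from 5.45% for Ythdc2 to 10.7% for Zc3h13, against a median of 6.92% over all genes. Cbll1 (9.93%), Ythdf3 (8.81%), Rbm15 (8.09%), Ythdc1 (7.47%) and Rbm15b (7.03%) were above that median, and Ythdf1 (5.95%) and Ythdf2 (6.00%) below it. In females all 9 values were lower, from 2.62% for Ythdf2 to 4.81% for Cbll1, with a median of 4.22% over all genes. Ythdf2 in the 8 females was among the lowest estimates, with 0.0875% of tested genes below it. Its CPM ran from 69.3 to 72.0 there, a plain coefficient of variation of 1.30%, so that the estimate is a moderated value and not the spread of these mice.

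Other genes of the pathway were counted in the same tests. Of 12 other writers and erasers, 0 passed for rank in males (beside 0% of all genes) or females (beside 0.0942%), and 5 passed between the tables, beside 36.2% of all genes. Higher in females were Alkbh5, an m6A demethylase (0.24 on the log2 scale, edgeR adjusted p = 5.94e-06), and Pcif1, which methylates cap-adjacent adenosines (0.27). Lower were Virma, the scaffold of the writer complex (-0.09), Zcchc4 (-0.18), which methylates 28S rRNA, and Mettl4 (-0.15). The catalytic pair did not pass, with Mettl3 at -0.14 and Mettl14 at 0.10 (edgeR adjusted p = 0.0961 and 0.0889), nor did Wtap at 0.05 or the demethylase Fto at -0.0023. Between ranks, Mettl3, Mettl14, Wtap, Virma, Fto and Alkbh5 had log2 differences of -0.018 to 0.06 in males and -0.0057 to 0.10 in females. The median log2 difference between the tables was -0.0057 over the 12 genes, -0.06 over the 9 readers and cofactors, and -0.00015 over all genes.

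Of 12 other proteins described as m6A readers, 9 could be tested for rank in males and 10 in females, and 0 passed in either sex. Between males and females 5 of 10 passed, beside 36.2% of all genes. Fmr1 (0.22), Prrc2a (0.28) and Lrpprc (0.07) were higher in females, and Fxr2 (-0.17) and Elavl1 (-0.16) lower. Of 11 tested partners of the YTH proteins in decay, splicing and export, 0 passed for rank, beside 0% of all genes in males and 0.0942% in females, and 8 between the tables, beside 36.2%. The decay factor Upf1 (0.32), the linker Rida (0.21), Safb (0.21) and Safb2 (0.21) were higher in females. Cnot1 (-0.23), the scaffold of the CCR4-NOT deadenylase, the exonuclease Xrn1 (-0.35), Pop1 (-0.22) and the export receptor Nxf1 (-0.23) were lower. In the cage test in males, 4 of the 32 tested genes of these lists passed, beside 5.89% of all genes. They were Mettl3, Hnrnpa2b1, Xrn1 and Nxf1 (edgeR adjusted p = 0.0185, 0.0203, 0.0345 and 0.0072).

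The genes with the pattern most like each reader or cofactor were taken from Pearson's r of log2 CPM, centred on the mean of each group, over the 22 mice and 15232 other genes. They were Zbtb2 and 9430038I01Rik for Ythdf1 (r = 0.75 and 0.73), Siah1a and Fam109b for Ythdf2 (0.79 and 0.78), Ppig and Dmxl1 for Ythdf3 (0.92 and 0.92), Zfp760 and Krit1 for Ythdc1 (0.88 and 0.87) and Nsun6 for Ythdc2 (0.85). For the cofactors they were Zfp592 and Sec24b for Rbm15 (0.94 and 0.92), Rnf11 for Rbm15b (0.85), Herc2 and Prrc2c for Zc3h13 (0.94 and 0.94) and Thsd7a and Pcbp2 for Cbll1 (0.92 and 0.92). Among the 9 genes, Zc3h13 with Cbll1 (0.81) and Ythdf3 with Ythdc1 (0.80) were the closest pairs and Rbm15 with Rbm15b (-0.58) the most opposed. These values share libraries and cages and describe these mice.

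The tissue was checked with marker lists. All 5 neuronal, 4 astrocyte, 4 oligodendrocyte, 4 microglial, 3 endothelial, 4 choroid plexus and 6 cerebellar markers had counts in both tables, while 4 haemoglobin genes had 0 counts in every library. The haemoglobin counts were not taken as a measure of blood, since the handling of multi-mapping reads is not given. Summed neuronal markers ran from 4246 to 4524 CPM in females and from 3526 to 4084 CPM in males, without overlap, and oligodendrocyte markers from 3878 to 4714 and from 4347 to 5257 CPM. Their part in the differences between the tables was not tested. Of 32 markers tested, 5 passed as higher and 5 as lower in females, in both directions within microglia (Cx3cr1 at 0.35 and Csf1r at -0.25 on the log2 scale). Summed markers of the other lists overlapped between the tables, with ranges of 1305 to 1507 CPM in females and 1268 to 1637 CPM in males for astrocytes, 207 to 214 and 201 to 241 CPM for microglia, 72.7 to 88.6 and 70.8 to 99.2 CPM for endothelium, 648 to 983 and 445 to 1036 CPM for choroid plexus, and 650 to 975 and 173 to 848 CPM for cerebellum. Markers of pituitary summed to at most 3.41 CPM in males and 3.01 CPM in dominant females. In submissive females they ran from 2.00 to 22.4 CPM, at 7.18 ± 10.1 CPM (SD, n = 4). Those of liver and muscle summed to at most 1.18 CPM in males and 1.49 CPM in females.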

How the data were processed

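Total RNA of 22 right brain hemispheres was sequenced by the authors after removal of ribosomal RNA with stranded libraries (85 nt, single-end). Per the labels and methods, reads were checked with FastQC 0.11.8, trimmed with cutadapt 1.15 and bbduk 38.06, mapped to mm10 with STAR 2.6.0a and counted per gene with featureCounts 1.6.2. What was deposited are raw counts of 24421 genes, in a table for each sex. The strand setting and the handling of multi-mapping reads are not given in the sources used here.

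Groups and replicate numbers came from the labels. CPM were computed with TMM factors, and genes were tested with the quasi-likelihood test of edgeR 4.0.16 (R 4.3.3), with a minimum count of 10, a minimum total count of 15, Benjamini-Hochberg adjustment over all genes tested and a threshold of 0.05. Log2 CPM used a prior count of 2. Alternatives were DESeq2 1.42.0, its size factors, no filter, loess trends on exon length or GC content removed (span 0.3), the replicate block, all mice in one fit, sums per cage and leaving out mice. Replicate numbers pair the mice because the library names give them the same cage, or for females 3 and 4 the same group. The deviations of cage mates from their group means correlated across genes at 0.177 on average in males, against -0.0294 for other pairs, and at 0.0239 against -0.008 in females. All 54 pairs of mice within a group differed by more than sampling noise. Each sample is 1 mouse.

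The 9 genes, the gene lists and the tests were chosen with earlier results of these data known. Named are the 9 genes, those listed genes that passed a test or that the study measured, the 2 most similar genes of each, of which 2 are not reported here, and Ddx3y. Markers are given as summed lists, with single markers named after their values were seen.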

Additional observations from a re-analysis of the deposited data

How the results depend on the processing

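No call for rank or for the interaction of rank and sex changed under any alternative or with any mouse left out (0 of 9 genes, or 0 of 7 with DESeq2 in females, where Rbm15 and Cbll1 had no adjusted p), and the replicate block changed no call (0 of 9 genes for each rank comparison, also with the exon length or GC content correction). Between the tables, 4 to 6 genes passed over the 6 alternatives, beside 25.6% to 37.9% of all genes, and 5 to 8 with a mouse left out, beside 32% to 37.9%, with 8 only without dominant male 6. Ythdf1, Ythdf3, Ythdc1 and Rbm15b kept their call and direction in all 28 of these fits. For cage in males the count was 0, but 1 with DESeq2 (beside 6.53% of all genes) and 1 with no expression filter (beside 5.9%), Zc3h13 both times, and 0 to 1 with a cage left out (beside 2.54% to 12.5%, with Ythdf3 without cage 1 and Zc3h13 without cage 2). The number of genes called of all genes for rank in females was 14, and 77 with DESeq2, 84 without the filter, 29 with the GC content trend removed, 36 with the replicate block, 50 and 8 with the block and the GC content or exon length correction, 0 with the exon length trend removed, 0 with all mice in one fit, and 0 to 77 with a mouse left out. For levels per kilobase, 2 genes kept their place in the order with the longest transcript as length, and the order in TPM, which rescales the same values within each library, is no separate check. The cause of these changes was not tested. Depth limits Cbll1 most, with 194 to 309 reads per mouse. The tables compare 11 cages, and differences under about 0.1 on the log2 scale lay inside most intervals for rank.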
